A study of Mus musculus with 8 samples.

Results

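The heavy chain variable (Ighv) segments were taken as the genes of the count table whose symbol in the mm9 annotation starts with Ighv. This gave 37 of 37991 genes, all on chromosome 12, and 36 of them are annotated as immunoglobulin V genes. RefSeq gives an Ighv name to another 79 segments of the locus that carry placeholder symbols in that annotation, so the 37 are part of 116 annotated V segments. The 37 fall into 10 families by the number in their name: 21 in Ighv1, 6 in Ighv8, 2 each in Ighv3 and Ighv9, and 1 each in Ighv2, Ighv10, Ighv11, Ighv12, Ighv14 and Ighv15.

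Gene expression had been profiled in lymphoid progenitors biased to the B-cell lineage, sorted from Kit-enriched mouse bone marrow, with 4 pools from H2afy-/- mice (H2afy_KO) and 4 from H2afy+/+ mice (H2afy_WT). The deleted gene codes for macroH2A1, a variant of histone H2A. The mice were 5 to 12 weeks old, and each pool held RNA equivalent to 5000 to 15000 sorted cells from 2 to 3 mice. The labels name no other allele or agent and no strain, and do not say whether pools shared mice, so each p-value reflects pool-to-pool spread, which may be technical in part.

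The count tables held 21330088 to 29029765 counts per pool. H2afy itself stood at 1953, 1744, 1423 and 1517 CPM (counts scaled to library size, here with TMM factors) in H2afy_KO 1 to 4, whereas H2afy_WT 1 to 4 had 2455, 2567, 2063 and 1981 CPM. The H2afy_KO values were all below the H2afy_WT values, but transcripts counted to the gene were abundant in every pool. The sources used here do not say which exons the allele lacks, so these levels are no test of the genotypes.

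An antibody heavy chain gene is assembled in developing B cells by joining 1 V, 1 D and 1 J segment, cut at recombination signals beside each segment by the Rag1 and Rag2 proteins. The joined gene is transcribed from the promoter of the chosen V segment, which typically carries an octamer motif bound by Oct factors, and B cells that later become plasma cells transcribe it at very high levels. Unjoined V segments are also transcribed at low levels while the locus is being made accessible. In mice, Ighv11-2 paired with the kappa segment Igkv14-126, and Ighv12-3 paired with Igkv4-91, encode antibodies that bind phosphatidylcholine and are common among B-1 cells, a population that arises mainly early in life.

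The sequences that follow come from the NCBIM37 genome (the assembly of mm9) and belong to segments that carried many of the counts, with 2 low ones, Ighv3-3 and Gm16611, for comparison. The first set shows the recombination signal beside each V exon, with the 7-base heptamer and the 9-base nonamer in capitals. It was chosen because the leading segment, the phosphatidylcholine-related Ighv12-3 and the low Ighv3-3 share a heptamer that differs from that of the other 4 shown.
Ighv11-2: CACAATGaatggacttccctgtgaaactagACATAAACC
Ighv12-3: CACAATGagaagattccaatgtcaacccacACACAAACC
Ighv3-3: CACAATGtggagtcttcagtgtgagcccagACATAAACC
Ighv9-3: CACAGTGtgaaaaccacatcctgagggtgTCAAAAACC
Ighv1-5: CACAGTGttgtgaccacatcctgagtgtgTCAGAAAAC
Ighv1-9: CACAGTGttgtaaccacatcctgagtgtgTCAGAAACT
Ighv1-23: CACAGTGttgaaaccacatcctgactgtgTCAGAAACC

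The Ighv11-2 signal lies at chr12:115286413-115286451 on the minus strand, directly beyond the V exon. The heptamer CACAGTG stood within 11 bases of the V exon in 23 of the 37 segments, and CACAATG in 3 (Ighv11-2, Ighv3-3 and Ighv12-3). As a background, 1.29% of the 60-base windows after all annotated gene ends held CACAGTG on the gene's strand. Ighv3-3 had the same heptamer and nonamer letters as Ighv11-2 and a total of 12 counts over all 8 pools, against 899453 for Ighv11-2. For Ighv1-18, a segment named further on, the annotated exon was not followed by a close match to the heptamer within that distance.

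The second set shows the octamer (capitals) with its neighbouring bases upstream of 5 of these segments.
Ighv11-2: agcaggaaggcATGCAAATagggcctcttt
Ighv12-3: ttgttccccacATGCAAATgcatgttctac
Ighv9-3: aggccagtcatATGCAAATctagagaagac
Ighv1-9: tgctcatgaatATGCAAATtacttgagtct
Ighv1-23: cactcataaatATGCAAATtacttgggtct

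The 8 letters ATGCAAAT were found in 30 of the 37 segments, in the window from 250 bases before to 50 bases after the annotated start, always on the segment's own strand. Both strands were searched, and 2.27% of 37308 such windows over all annotated genes held the octamer on either strand. The 7 segments without the letters in this window were Ighv2-4, Ighv1-7, Ighv15-2, Ighv1-24, Ighv1-73, Ighv8-14 and Ighv1-83. All but Ighv2-4 (350 exon bases) and Ighv15-2 (351) have short annotations of 120 to 294 exon bases. In Ighv3-3, also short (296), the octamer began 250 bases before the start, at the window's edge, against 108 in Ighv11-2. An octamer farther upstream of the short segments would be missed, so its absence there is not shown. In the 8 pools, at least 95.3% of the summed counts of the 37 segments came from the 30 segments with the octamer. The abundant segments of both genotypes were thus among those with the octamer. However, 81.1% of the 37 segments have it, and Ighv11-2 alone held 35.2% to 87.0% of these counts. The share without Ighv11-2 was not computed.

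The third set shows why counts of single segments need care. Ighv11-2 (ENSMUSG00000076659, chr12:115286452-115286915, minus strand, 2 exons) has a near copy, Ighv11-1, listed in the annotation as Gm16611. Their V exons differ at 4 of 307 bases, an identity of 98.7%, and 2 of the differences stand in capitals in this stretch of 90 bases.
Ighv11-2: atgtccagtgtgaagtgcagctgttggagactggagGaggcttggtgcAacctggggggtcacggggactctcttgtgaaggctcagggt
Gm16611: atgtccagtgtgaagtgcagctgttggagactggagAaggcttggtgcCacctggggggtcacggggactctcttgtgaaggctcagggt

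Reads were 50 bases long, and 51.2% of the 50-base windows of Ighv11-2 occur at no other place in the genome. The sources used here do not say how reads with several placements were counted. The copy received 1 to 503 counts per pool, which was 0.0749% to 0.253% of the Ighv11-2 count in the same pool. Among the 37 segments, 33 had at least 50% unique windows, while Ighv1-62-2 and Ighv1-71 are identical to each other over their exons and had 0%. Those 2 segments had 1 and 0 counts over all pools, which therefore says little about their level.

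**Figure D1:**
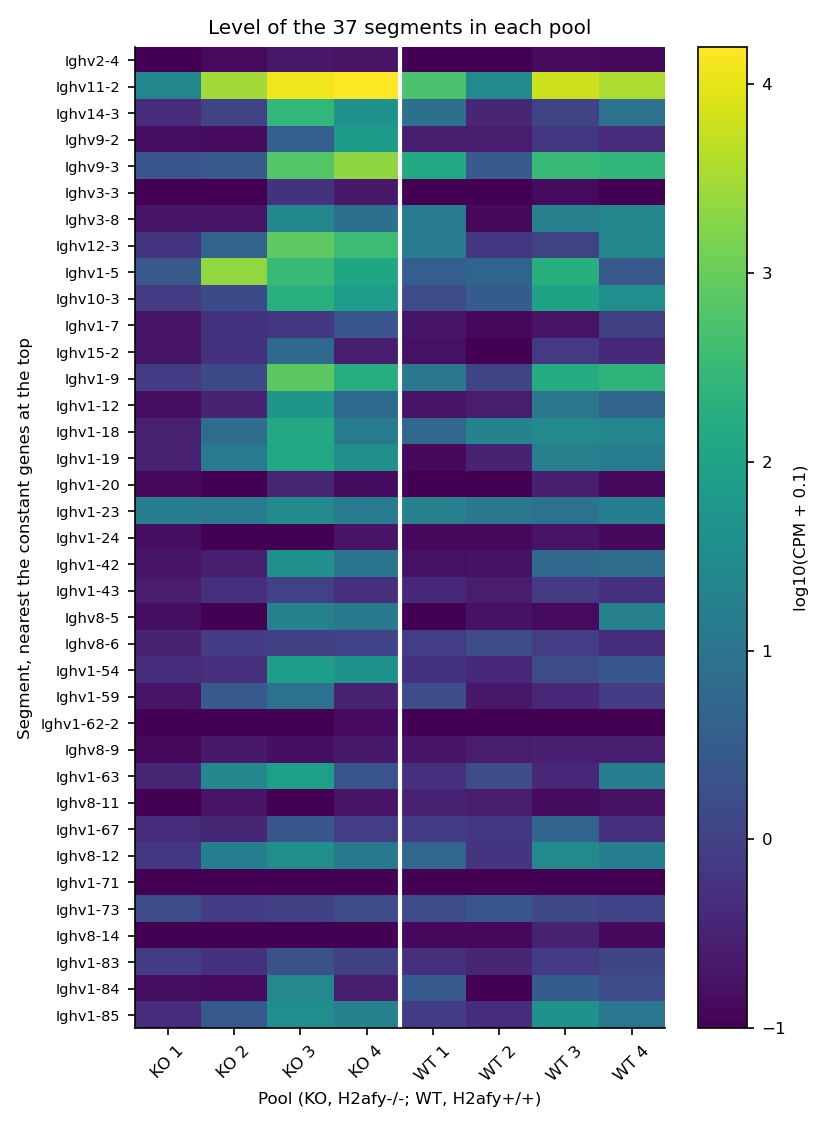
Level of each of the 37 segments (rows, in order along the locus from the constant genes) in each pool (columns), as log10 of CPM plus 0.1. Ighv11-2 is the brightest row in every pool, and Ighv1-23 is the row of nearly even colour.

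The summed level of the segments differed far more between pools than between genotypes. In CPM, the 37 segments together reached 53.2, 5265, 15776 and 18865 in H2afy_KO 1 to 4, whereas H2afy_WT 1 to 4 had 738, 83.0, 7347 and 4253. H2afy_KO 1 and H2afy_WT 2 were the lowest pools of their genotypes, and H2afy_KO 3 and 4 were above all other pools. The raw totals behind these levels ran from 1677 to 447168 counts.

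On the log2 CPM scale the mean was 11.56 ± 3.97 (SD, n = 4) in H2afy_KO and 10.20 ± 2.92 (SD, n = 4) in H2afy_WT. The difference of 1.36 had a 2-sided exact permutation p of 0.571, over 70 assignments whose smallest possible p is 0.0286. The genotypes overlapped over almost their whole range. Leaving out 1 pool moved the difference from 0.0863 (without H2afy_WT 2) to 3.30 (without H2afy_KO 1), and without both of these pools it was 2.03 (p = 0.2 in the exact test of 3 against 3 pools, whose smallest p is 0.1). In bulk RNA, fewer cells with a joined gene and less RNA per such cell cannot be told apart.

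The summed level went with other genes in the same pools. Ighm, the constant gene of the IgM heavy chain, was at 2899, 51032, 275287 and 224694 CPM in H2afy_KO 1 to 4, and at 15816, 5136, 91046 and 65236 CPM in H2afy_WT 1 to 4. All 116 V segments together gave 12.3 to 14.6 counts per 100 Ighm counts in 6 pools, but 4.05 in H2afy_KO 1 and 5.61 in H2afy_WT 2. Thus the pools poorest in V counts also had the fewest V counts for their Ighm counts. Ighg1 and Ighg2c, constant genes of switched isotypes, were at 0.952 to 573 and 2.60 to 2874 CPM.

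Of the plasma cell list, 14 of 14 genes were measured and 0 were called. Their summed level ran from 247 to 22066 CPM in H2afy_KO and from 694 to 9579 CPM in H2afy_WT, and no member was at 0 in any pool. Igj, the joining chain of secreted IgM, ran from 32.4 to 18967 CPM and was the highest of them in 7 pools. In H2afy_KO 1, at 32.4 CPM, it was below Mzb1 (62.8 CPM), Sdc1 (35.3 CPM) and Xbp1 (35.2 CPM). Across the 8 pools, log2 CPM of Ighv11-2 and of the summed plasma cell list correlated with Pearson's r = 0.983 (exact permutation p = 7.44e-05, adjusted over 3 relations 0.000112) and Spearman's rho = 0.976 (exact permutation p = 0.000397, adjusted 0.000595). Without H2afy_KO 1 and H2afy_WT 2, the pools farthest from the median, r was 0.977 over 6 pools. Igj made up most of the sum in the richer pools, such as 18967 of 22066 CPM in H2afy_KO 3 and 8638 of 9579 CPM in H2afy_WT 3. In H2afy_WT 2 it was 282 of 694 CPM. The correlation therefore rests largely on Igj and does not stand for all 14 genes alike, and it was not run without Igj. The list was written with the immunoglobulin differences between these pools known.

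The pre-B cell list (surrogate light chain genes and early receptor components) did not follow: r = -0.157 (exact permutation p = 0.712, adjusted 0.712) and rho = -0.119 (exact permutation p = 0.793, adjusted 0.793), with r = -0.73 without the same 2 pools. Its summed level was 548 to 1261 CPM in H2afy_KO and 1335 to 3018 CPM in H2afy_WT, so the groups did not overlap. All 7 genes had a negative fitted log2 fold change, with a median of -1.45. At an unadjusted edgeR p below 0.05 there were 6 of the 7, against 7.58% of all genes tested. After adjustment 0 of 7 were called, as were 0 of all 13722 genes tested. The lymphoid progenitor genes were present in every pool, among them Kit at 246 to 366 CPM and Flt3 at 892 to 1225 CPM. The T cell list summed to 242 to 416 CPM over the 8 pools, most of it Lck, a kinase also known from other lymphoid cells, at 220 to 410 CPM. Cd4 reached 16.6 CPM and Cd8a 13.0 CPM, both highest in H2afy_KO pools, while the defining markers Cd3d and Cd3e stayed at or below 0.540 CPM and Cd3g at or below 1.27 CPM. The mature B cell list was at 1178 to 7964 CPM, and the plasmacytoid dendritic cell list at 657 to 1102 CPM. What part the other cell types have in the level of the V segments was not tested.

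Ighv11-2 was the leading segment in all 8 pools. It held 44.5%, 55.4%, 76.4% and 82.9% of the summed counts of the 37 segments in H2afy_KO 1 to 4. Its share was 69.5%, 35.2%, 87.0% and 82.6% in H2afy_WT 1 to 4. In both genotypes the pool poorest in Ighv counts had the lowest share, and the ranges overlapped.

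The leading share averaged 64.8% ± 17.9 (SD, n = 4) in H2afy_KO and 68.6% ± 23.5 (SD, n = 4) in H2afy_WT. The difference of -3.77 percentage points had an exact permutation p of 0.829, and it turned positive without H2afy_KO 1 (3.00), H2afy_WT 3 (2.38) or H2afy_WT 4 (0.901). Among all 116 segments Ighv11-2 led in 7 pools, with 20.2% to 55.7% of the counts. In H2afy_WT 2 the leader was Ighv1-55 (listed as Gm16792) with 25.6%, and Ighv11-2 came second with 10.1%.

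In CPM, Ighv11-2 was at 23.7, 2915, 12055 and 15639 in H2afy_KO 1 to 4. In H2afy_WT 1 to 4 it was at 513, 29.2, 6394 and 3512. The highest pool was 660 times the lowest. Its fitted log2 fold change (H2afy_KO over H2afy_WT) was 1.55 (SE 1.92), with an adjusted p of 0.894 in the edgeR quasi-likelihood test over 13722 genes.

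The kappa segment Igkv14-126 moved with Ighv11-2 through this range. Its counts were 1511, 113094, 385063 and 717525 in H2afy_KO 1 to 4, whereas H2afy_WT 1 to 4 had 33572, 1459, 243138 and 197704. Counts of Ighv11-2 per count of Igkv14-126 lay between 0.452 and 0.628 in all 8 pools, so the highest ratio was 1.39 times the lowest. For comparison, the same ratio of Ighv11-2 to each of the 76 kappa V segments counted in every pool varied by 4.20 times for the next steadiest, Igkv1-122, and by a median of 157 times.

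Log2 CPM of the 2 segments correlated with r = 0.999 (exact permutation p = 2.48e-05, adjusted over 3 relations 7.44e-05) and rho = 1 (exact permutation p = 4.96e-05, adjusted 0.000149). Both unadjusted p-values are the smallest that the permutations can give. Over the 6 pools without H2afy_KO 1 and H2afy_WT 2, r was 0.995. Igkv14-126 was the leading kappa segment in 6 pools. Igkv12-44 led in H2afy_WT 2 and Igkv14-130 in H2afy_WT 3. Among the 26 segments of the 37 that had a count in every pool, the ratio to Igkv14-126 varied by 12.7 times for Ighv1-85, the next after Ighv11-2, and by 1241 times for Ighv1-5.

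**Figure D2:**
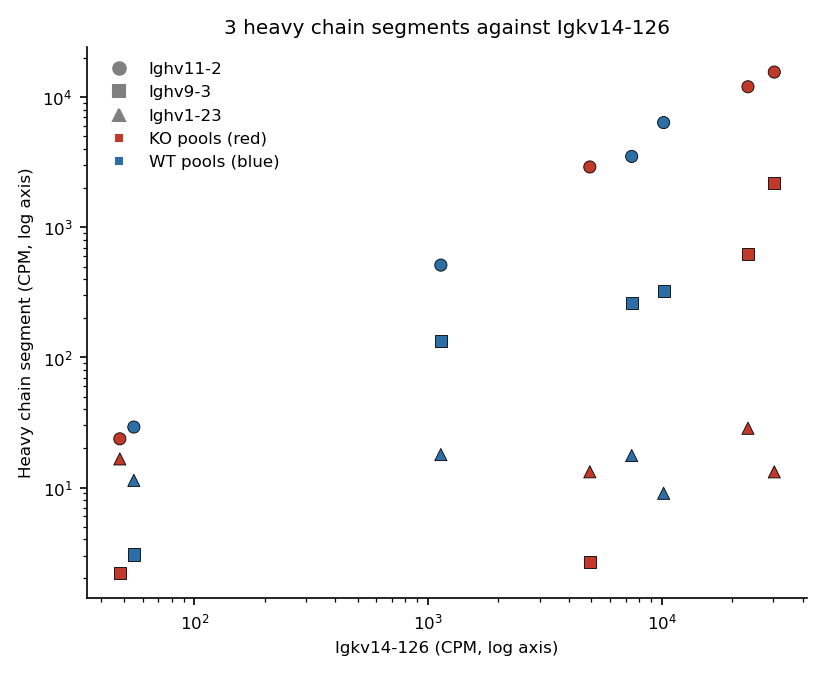
CPM of Ighv11-2, Ighv9-3 and Ighv1-23 (vertical, log axis) against CPM of Igkv14-126 (horizontal, log axis), 1 point per pool and segment, H2afy_KO in red and H2afy_WT in blue. Ighv11-2 lies along a straight line from H2afy_KO 1 (23.7 CPM) to H2afy_KO 4 (15639 CPM), Ighv9-3 leaves it in H2afy_KO 2 (2.70 CPM), and Ighv1-23 stays between 9.04 and 28.6 CPM.

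Ighv12-3, the other segment of the phosphatidylcholine pairs, was concentrated in 2 pools. The 4 H2afy_KO pools gave 16, 99, 13090 and 8548 counts, and the 4 H2afy_WT pools 388, 16, 22 and 670. H2afy_KO 3 alone held 57.3% of its counts. Its ratio to Igkv4-91 ran from 0.00589 in H2afy_WT 3 to 2.38 in H2afy_KO 4, so these counts did not keep a steady ratio. The fitted log2 fold change was 4.86 (SE 2.43, edgeR adjusted p = 0.707).

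Behind Ighv11-2, the next segments differed from pool to pool. Ighv1-5 held 42.8% of the summed counts in H2afy_KO 2, against 0.0645% to 5.6% elsewhere. Ighv1-18 held 25.0% in H2afy_WT 2, against at most 0.857% elsewhere. This share was taken of a total of only 2198 counts, and by level H2afy_WT 2 did not stand out (20.7 CPM). H2afy_KO 3 (135 CPM), H2afy_WT 3 (27.9 CPM) and H2afy_WT 4 (24.4 CPM) were higher for Ighv1-18, while the remaining pools ranged from 0.190 to 14.2 CPM. Ighv9-3 held 18.3% in H2afy_WT 1 and 11.7% in H2afy_KO 4, and was the second segment in H2afy_WT 3 (4.4%) and H2afy_WT 4 (6.18%) too.

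In CPM, Ighv1-5 was at 2.73, 2253, 336 and 114 in H2afy_KO 1 to 4 and at 3.41, 4.64, 185 and 2.74 in H2afy_WT 1 to 4. Ighv9-3 was at 2.19, 2.70, 625 and 2198 CPM in H2afy_KO 1 to 4 and at 135, 3.06, 324 and 263 CPM in H2afy_WT 1 to 4. For both, H2afy_KO pools were among the lowest as well as the highest. Ighv1-9 followed another order, at 0.730, 1.30, 760 and 176 CPM in H2afy_KO 1 to 4 and at 11.5, 1.06, 159 and 239 CPM in H2afy_WT 1 to 4.

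Of the 37 segments, 27 reached 1 CPM in at least 1 pool. The highest pool was H2afy_KO 3 for 18 of these, H2afy_KO 4 for 4, H2afy_WT 2 and H2afy_WT 3 for 2 each, and H2afy_KO 2 for 1. For 13 of the 27, over 50% of the counts came from a single pool. Another 5 of the 37 had fewer than 10 counts over all pools, and Ighv1-71 was the 1 segment with no count.

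Comparing whole sets of shares, the overlap of a pair of pools is the sum over segments of the smaller of the 2 shares. It had a median of 57.4% over the 12 pairs of the same genotype and 58.1% over the 16 pairs of different genotypes. Without Ighv11-2 the medians were 27.9% and 31.6%, and the lowest overlap was 4.18%, between H2afy_KO 2 and H2afy_WT 1. Pools of 1 genotype thus shared no more of their segment use than pools of different genotypes, by these medians, which were not tested.

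**Figure D3:**
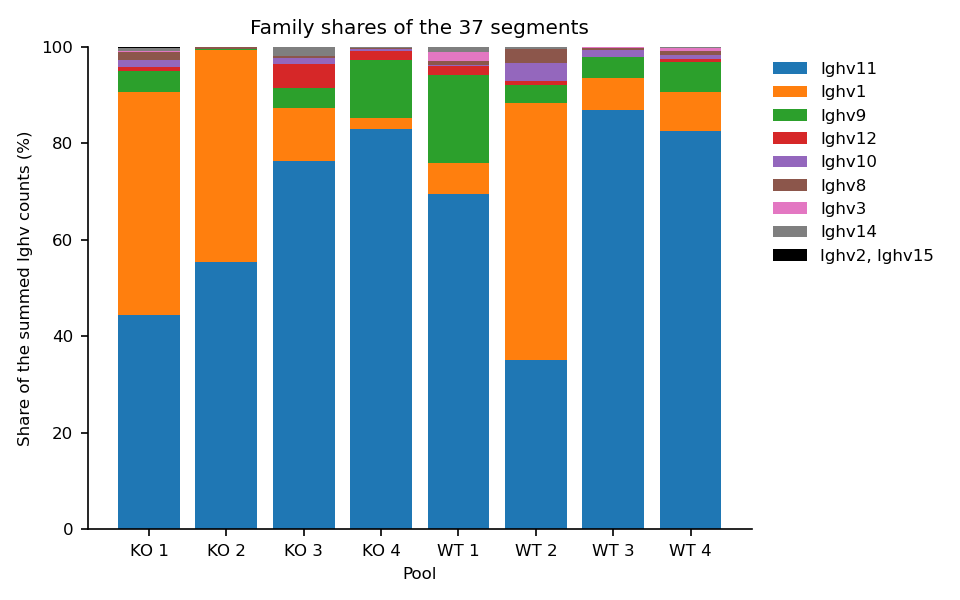
Share of the summed counts of the 37 segments held by each family (stacked bars, percent) in each pool. The Ighv11 part, which is Ighv11-2 alone, is the largest in 6 pools, the Ighv1 part exceeds it in H2afy_KO 1 and H2afy_WT 2, and Ighv9 is widest in H2afy_WT 1 with 18.3%.

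By family, Ighv1 held 46.3%, 44.1%, 11% and 2.36% of the counts in H2afy_KO 1 to 4, whereas H2afy_WT 1 to 4 had 6.45%, 53.1%, 6.45% and 8.17%. The mean was 25.9% ± 22.5 (SD, n = 4) in H2afy_KO and 18.6% ± 23.1 (SD, n = 4) in H2afy_WT. High Ighv1 shares appeared in both genotypes and came from different segments: Ighv1-23 in H2afy_KO 1, Ighv1-5 in H2afy_KO 2 and Ighv1-18 in H2afy_WT 2. Over the 10 families, 0 were called in the exact permutation test (smallest adjusted p = 0.857), and 0 had an unadjusted p below 0.05. The smallest possible p is 0.0286, which for 1 family alone stays above 0.05 after adjustment over 10. The test could therefore not call a single family.

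The distal families Ighv1 and Ighv8, far from the constant genes, need contraction of the locus to be joined. Together they held 26.6% ± 23 (SD, n = 4) in H2afy_KO and 19.8% ± 24.2 (SD, n = 4) in H2afy_WT (exact permutation p = 0.914). Without H2afy_KO 1 the difference, 6.75 percentage points with all pools, was -0.39. The proximal families Ighv2 and Ighv5 were represented by Ighv2-4 alone, which had 7 counts over all pools. The proximal share is therefore better read from the 116 segments, where it was 3.35% to 5.77% in H2afy_KO. It was 21.3%, 3.13%, 4.25% and 5.33% in H2afy_WT 1 to 4 (exact permutation p = 0.600), with H2afy_WT 1 standing above the other 7 pools.

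With all 116 segments, 16 families were compared, and family Ighv3 was the 1 whose groups did not overlap. It held 1.41%, 0.520%, 0.823% and 1.60% of the counts in H2afy_KO 1 to 4, whereas H2afy_WT 1 to 4 had 7.97%, 8.12%, 9.36% and 6.96%. The exact permutation test gave p = 0.0286, the lowest value possible with 4 against 4 pools. Adjusted over the 16 families it was 0.457, so it did not pass, and no single family could have passed. Ighv3-1 (listed as Gm16610) had 22, 54, 25 and 210 counts in the H2afy_KO pools, against 2576, 39, 21952 and 10021 in those of H2afy_WT. Without it the shares were 0.489% to 1.57% in H2afy_KO and 1.76% to 7.64% in H2afy_WT, still without overlap. In H2afy_WT 2 most of the family share was Ighv3-6 (listed as Gm16932), with 7.55% from 576 counts. The median level of Ighv3-6 was 106 CPM in H2afy_KO and 105 CPM in H2afy_WT. Of the 2 family members among the 37, Ighv3-8 was at 0.0870 to 27.1 CPM in H2afy_KO and 0.0377 to 24.9 CPM in H2afy_WT. This comparison was added after the data were seen.

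**Figure D4:**
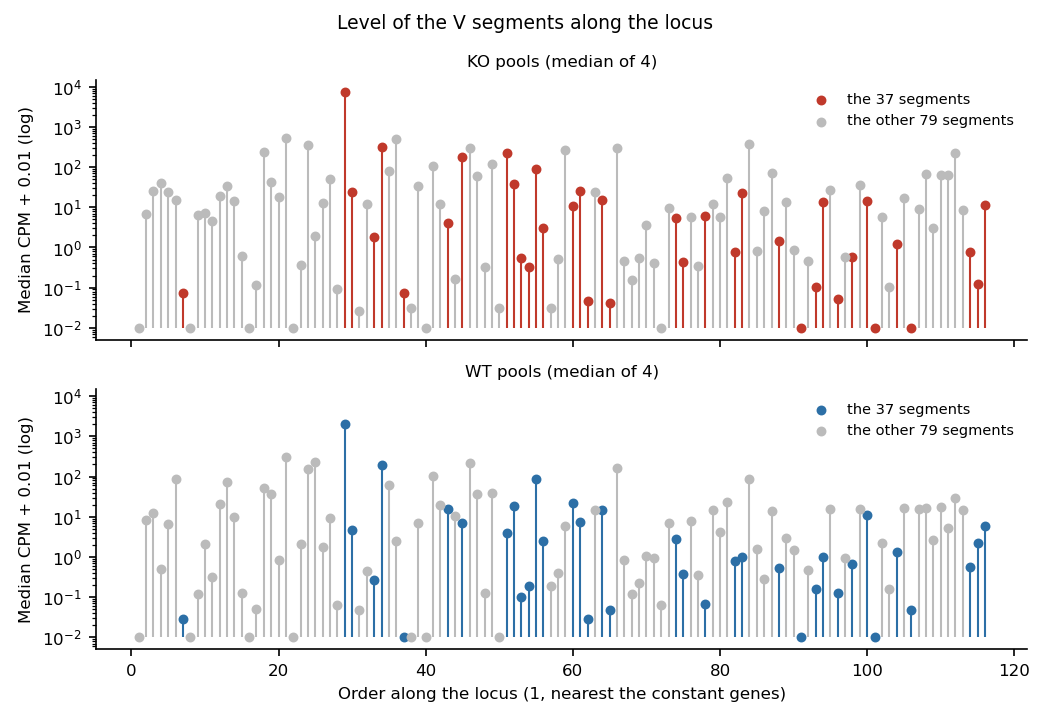
Median level over the 4 pools of each genotype (CPM plus 0.01, log axis) of the 116 V segments in their order along the locus, with the 37 segments in colour and the other 79 in grey. The tallest line in both panels is Ighv11-2, the 29th segment from the constant genes, and segments of high and low level stand side by side along the whole locus.

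Along the locus, Ighv2-4 was the nearest of the 37 segments to the constant genes, the 7th of 116, and it reached 0.121 CPM. Ighv1-85 was the farthest, the last of 116, and it reached 44.5 CPM in H2afy_WT 3 and 34.8 CPM in H2afy_KO 3. The most proximal segments of the locus with counts lay outside the 37: Ighv5-2 (Gm16969), a segment known for frequent use in fetal life, was at 0.730 to 59.3 CPM. Ighv1-72 (Gm16709), a distal segment known from antibodies to the hapten NP, was at 0.222 to 108 CPM, with 0% unique windows. Per exon kilobase, and as a mean over the 8 pools, Ighv11-2 was at 14547 CPM, against 1265 for Ighv9-3, 1234 for Ighv1-5 and 431 for Ighv12-3.

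The effective number of segments, the number of equally used segments that would give the same Shannon diversity, was small in every pool. It was 5.59, 2.24, 2.98 and 1.98 in H2afy_KO 1 to 4, whereas H2afy_WT 1 to 4 had 3.06, 7.34, 1.90 and 2.23. The means were 3.20 ± 1.65 (SD, n = 4) and 3.63 ± 2.52 (SD, n = 4), and the difference of -0.44 had an exact permutation p of 0.771. Without H2afy_WT 2 it was 0.801. Over 116 segments the values ran from 7.24 to 27.7. The 2 pools of the lowest totals had the highest numbers among the 37, and without them the genotypes were at 2.40 ± 0.522 and 2.40 ± 0.597 (SD, n = 3). RefSeq lists 0 of the 37 segments as pseudogenes, so their pseudogene share was 0.

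A few segments kept an even level while the total changed. Ighv1-23 was at 16.6, 13.2, 28.6 and 13.2 CPM in H2afy_KO 1 to 4 and at 17.9, 11.4, 9.04 and 17.6 CPM in H2afy_WT 1 to 4, a range of 3.16 times. Its share of the summed counts therefore ran from 0.0700% in H2afy_KO 4 to 31.2% in H2afy_KO 1. Its mean level was 17.9 ± 7.29 CPM (SD, n = 4) in the H2afy_KO pools, beside 14 ± 4.48 CPM (SD, n = 4) in H2afy_WT, with a log2 fold change of 0.35 (SE 0.30, edgeR adjusted p = 0.821).

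Of the 24 segments that reached 1 CPM and had a count in every pool, 4 varied by less than 10 times between the highest and the lowest pool. Besides Ighv1-23 they were Ighv1-73 (3.42 times), Ighv1-83 (7.12 times) and Ighv8-6 (7.13 times). The other 20 varied by 18 to 3826 times, with a median of 685. The even group thus held segments of low level throughout, and Ighv1-23 was the highest of them. Whether their counts come from joined or unjoined segments cannot be read from counts per gene.

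In the 2 pools of the lowest totals, the 7 abundant segments stood at small fractions, all below 1%, of their counts in the other pools. For each segment with at least 5000 counts over the other 7 pools, the count in 1 pool was divided by that sum. In H2afy_KO 1 this gave 0.0830% for Ighv11-2, 0.0849% for Ighv9-3, 0.0843% for Ighv1-9 and 0.0701% for Ighv12-3, while Ighv1-5 (0.133%), Ighv14-3 (0.178%) and Ighv10-3 (0.257%) were higher. In H2afy_WT 2 it gave 0.0860% for Ighv11-2, 0.0997% for Ighv9-3, 0.103% for Ighv1-9 and 0.0701% for Ighv12-3, with 0.113% for Ighv14-3, 0.190% for Ighv1-5 and 0.966% for Ighv10-3. Among the segments of all 116 with as many counts, the highest fractions were 3.46% in H2afy_KO 1 and 4.12% in H2afy_WT 2.

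Values of the same size also appeared in single segments of the other pools. Ighv9-3 was at 0.0763% in H2afy_KO 2, Ighv12-3 at 0.0964% in H2afy_WT 3 and Ighv1-5 at 0.113% in H2afy_WT 4. Among the 7 segments, none was below 0.0701% in any of the pools. Among the segments of all 116 the lowest value was 0.0506%, for Ighv5-17 in H2afy_WT 2. The steady ratio of Ighv11-2 to Igkv14-126 in H2afy_KO 1 and H2afy_WT 2 rests on counts of this size, and whether reads of other libraries contribute to them was not tested.

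Tested one by one, 25 of the 37 segments passed the filter on low counts, and 0 were called higher and 0 lower in H2afy_KO in the edgeR quasi-likelihood test. Over all 13722 genes tested, 0% were called higher and 0% lower. At an unadjusted p below 0.05 the count was 1 of the segments, against 7.58% of all genes. DESeq2 called 0 of the 23 segments to which it gave an adjusted p, the smallest being 0.0953 for Ighv1-54. At an unadjusted DESeq2 p below 0.05 there were 4 of the 32 segments with a p-value, all higher in H2afy_KO. Over all genes with a p-value this count was 1485 of 27956. Of the 13299 genes with an adjusted p the share called was 0.391% for higher and 0.602% for lower levels in H2afy_KO. The groups did not overlap for 0 of the 25 segments tested, against 4.53% of the genes tested. Of all 37 they did not overlap for 1, Ighv8-14, which did not pass the filter. Ighv8-14 had 0 counts in all H2afy_KO pools and 1, 1, 5 and 1 counts in H2afy_WT 1 to 4. At so few counts no difference can be read for it.

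The smallest p belonged to Ighv1-54, at 0.349, 0.391, 82.7 and 44.3 CPM in H2afy_KO 1 to 4 and at 0.473, 0.302, 1.46 and 2.48 CPM in H2afy_WT 1 to 4. Its log2 fold change was 4.76 (SE 1.96), with an unadjusted p of 0.0494 and an adjusted p of 0.655 (edgeR). The high values were those of H2afy_KO 3 and 4, while H2afy_KO 1 and 2 lay within the H2afy_WT range. Ighv14-3 was at 0.349, 1.04, 276 and 46.3 CPM in H2afy_KO 1 to 4 and at 8.24, 0.264, 1.05 and 8.60 CPM in H2afy_WT 1 to 4 (log2 fold change 4.15, SE 2.21, edgeR adjusted p = 0.723). Ighv1-7 stayed at or below 2.24 CPM (log2 fold change 1.63, SE 1.06, edgeR adjusted p = 0.758). The standard errors of these 4 segments with the smallest p, Ighv12-3 included, ran from 1.06 to 2.43 on the log2 scale.

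The genes that act on the locus were read beside these values. Of 14 recombination genes 0 were called, and 12 had a negative fitted log2 fold change. Rag1 was at 24.1 to 93.5 CPM in H2afy_KO and 116 to 320 CPM in H2afy_WT (log2 fold change -1.65, SE 0.47, edgeR adjusted p = 0.475). Rag2 had a log2 fold change of -0.56 (SE 0.24, edgeR adjusted p = 0.629). Dntt, which adds bases at the joins, had one of -0.50 (SE 0.16, edgeR adjusted p = 0.489). The median over the 14 genes was -0.30, beside 0.000736 over all genes tested.

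Of the 16 genes of locus contraction and accessibility, 0 were called, 12 had a negative fitted log2 fold change, and the median was -0.097. At an unadjusted edgeR p below 0.05 there were 3, all lower in H2afy_KO: Pax5, Ebf1 and Il7r. The log2 fold change was -1.41 for Ebf1 (SE 0.45, edgeR adjusted p = 0.509) and -0.32 for Il7r (SE 0.12, edgeR adjusted p = 0.537). Pax5, a factor needed for joining distal V segments, was at 1.46 to 8.13 CPM in H2afy_KO and 9.84 to 15.3 CPM in H2afy_WT (log2 fold change -1.34, SE 0.46, edgeR adjusted p = 0.519). Yy1, Ezh2, Ikzf1 and Ctcf, which also take part in folding or opening the locus, had log2 fold changes of -0.12, -0.35, -0.068 and 0.0015 (edgeR adjusted p of 0.897, 0.791, 0.937 and 0.998). Pou2af1, the cofactor of Oct factors at the octamer, was at 9.75, 41.4, 286 and 167 CPM in H2afy_KO 1 to 4 and between 69.6 and 81.9 CPM in the H2afy_WT pools (log2 fold change 0.72, SE 0.93, edgeR adjusted p = 0.897).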

How the data were processed

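RNA of 8 pools was sequenced as single reads of 50 bases, from cDNA made with a low-input kit, per the labels' protocols. The submitters' processing notes name HISAT2 2.0.6 and the build mm9. The sources used here do not give the counter, its annotation or its strand setting. The deposited table holds unnormalized read counts for each Ensembl gene, 21330088 to 29029765 per pool. GENCODE M1 on NCBIM37 named 37205 of 37991 IDs. RefSeq (GRCm38.p6) was used for names and pseudogene status.

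Single segments were tested with edgeR 4.0.16 (quasi-likelihood test, R 4.3.3) with TMM factors, filterByExpr (minimum count 10), robust fitting, Benjamini-Hochberg adjustment over 13722 genes and a threshold of 0.05. On simulated data for this comparison (13722 genes), 84 of 100 genes changed by 2 and 18 of 100 changed by 1 on the log2 scale were recovered. Among the unchanged genes 6 were called. The changed genes were drawn at random from all genes tested, with the pool-to-pool spread typical of genes at their level. The abundant segments varied far more (SE 1.92 for Ighv11-2), so these rates do not apply to them. For shares and levels per pool, exact permutation tests (2-sided) were used. Over the 28 pairs of pools, chi-square divided by its degrees of freedom was at least 92.2, so no pool repeated another.

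Segments named in the text are the 3 leading ones of each pool, the leading one of each family, the 4 of smallest p and fixed landmarks; others were chosen with their values in view. The members and lists were chosen with earlier results of these data known. Of 87 list entries 4 found no match (Ighd, Ighg2b, Ighg3 and Igha) and were not analysed here. Replicate numbers are shared in the labels, and deviations of same-numbered pools correlated at 0.19, 0.19, 0.36 and 0.41 across genes. All 4 passed the limit of 0.1 set for reading numbers as pairing, but differently numbered pools correlated at -0.52 to 0.52, H2afy_KO 1 with H2afy_WT 2 highest, so the pairing is not specific to the numbers.

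Alternatives were DESeq2 1.42.0, RLE factors, no filter, the replicate block, other denominators, subsets of segments and each pool left out. Added after seeing the data were all 116 V segments, shares per exon base, and leaving out both H2afy_KO 1 and H2afy_WT 2.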

Additional observations from a re-analysis of the deposited data

Results flagged for a closer look

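In 62 groups of 4 pools (shares, diversity and the CPM of named segments), 11 had a pool farther from the other 3 than Dixon's 95% critical value. For normally distributed values chance flags about 1 in 20 groups. Shares and CPM were not put on a log scale here, and all 11 flags were for the highest pool. The chance rate for such values is not known, and the measures share counts. By share, H2afy_WT 2 was high for the distal families (56.1%) and for family Ighv1 (53.1%), H2afy_KO 1 for family Ighv8 (1.73%), and H2afy_WT 1 for family Ighv9 (18.3%).

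By level, H2afy_KO 3 was high for Ighv1-18 (135 CPM), Ighv14-3 (276 CPM) and Ighv15-2 (5.76 CPM), and H2afy_KO 2 for Ighv1-5 (2253 CPM). Among the H2afy_WT pools, H2afy_WT 3 was high for Ighv1-5 (185 CPM), and H2afy_WT 4 for Ighv1-63 (16.6 CPM) and Ighv1-7 (0.864 CPM).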

How the results depend on the processing

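For the 5 main results with a direction (summed level, proximal, distal and leading shares, effective number), 66 of 77 alternative values kept it, 11 reversed and 0 passed a threshold. The tally includes settings that could not turn a sign. Leaving out pseudogenes removed no segment, and the replicate block keeps the mean difference, so both repeated the 5 main values. The proximal share had no value without segments of few unique windows or under 10 counts, since Ighv2-4, its only segment, was then left out. The other 4 results were 0 (called segments in each direction, called families, pseudogene share, which is 0 by the choice of segments), and 51 of 52 alternative values were 0 too. A single family could not be called in any of these tests, as given above. The count of called segments was 0 under every edgeR and DESeq2 setting run. With the replicate block, by sign flips over 4 pairs (smallest p 0.125), p was 0.625 for the summed level (1.36), 0.875 for the effective number and 0.750 for the leading share. The block changed no call among the segments or the shares, and at p of 0.125 or more no share could be called.

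Signs turned for main differences that were smaller than the SD of either genotype, but some of the turned values were larger than the main ones. The proximal share difference (0.000147 percentage points) was -0.000436 without each pool's leading segment and -4.10 over all 116 segments. The distal share difference was -0.40 for the 12 segments farthest from the constant genes. The effective number differed by 0.00470 without H2afy_KO 1 and H2afy_WT 2. The leading share differed by 18.4 points without each pool's leading segment and by 0.00414 over 116 segments, where the pseudogene share differed by -1.73. The cause was not tested. Leaving out 1 pool gave -0.39 to 18.9 for the distal share, -1.23 to 0.801 for the effective number and -14.9 to 3.00 for the leading share. Positive leading share differences came without H2afy_KO 1 (3.00), H2afy_WT 3 (2.38) or H2afy_WT 4 (0.901), and the positive effective number difference came without H2afy_WT 2. Depth limits the 2 poorest pools most, with 1677 and 2198 counts over the 37 segments.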
